A study of Mus musculus with 6 samples.

Results

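The mitochondrial respiratory chain genes described here are nuclear genes that encode the subunits of complexes I to V, cytochrome c and a few companions. They were chosen by name: every row of the gene tables whose symbol begins with Nduf, Uqcr, Atp5, Cox4, Cox5, Cox6, Cox7 or Cox8, or equals Sdha, Sdhb, Sdhc, Sdhd, Cycs or Cyc1. The rule found 92 genes among 23699 rows, each with a successful estimate in all 6 libraries. It used no measured value. By role they were 36 complex I genes, 4 complex I assembly factors (Ndufaf1 to Ndufaf4), 4 of complex II, 9 of complex III, cytochrome c, 12 common and 8 tissue-restricted genes of complex IV, and 15 of complex V. A further 3 matched by name only: Cox4nb, which neighbours Cox4i1 and encodes no subunit of complex IV, and Atp5s and Atp5sl, which encode accessory factors. Ndufa4 and Ndufa4l2 were counted with complex IV, to which the Ndufa4 protein is now assigned. In mutants against controls, limma called none of the 90 members tested at an adjusted p under 0.05, as it called 0 of 14642 genes in all (0.0%). For 85 of the 90 members tested, the 95% interval of the change in level lay within 1.5-fold either way, beside 65.1% of all genes. These intervals do not cover the sharing of reads with copies of a gene. The gene with the smallest p, Atp5g2, has identical copies elsewhere in the genome.

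RNA was sequenced from the first 2 cm of the duodenum of 6-week-old mice of mixed background, 3 controls against 3 mutants. The mutants carried 1 floxed and 1 SD allele of Nkx2.2, a homeodomain transcription factor of the intestinal epithelium, together with Villin-Cre/+. Mutants 1 and 3 also carried Rosa26Tomato/+, and mutant 2 did not. Control 1 was Nkx2.2flox/+; Rosa26Tomato/+, control 2 was Rosa26Tomato/+ and control 3 was WT. No control carried Villin-Cre or the SD allele, so an effect of either of these cannot be told apart from that of losing the floxed allele. Villin-Cre recombines in intestinal epithelium, so the muscle, stroma and blood cells of the segment kept the floxed allele in the mutants. The tissue was not sorted: fewer cells of a type and less RNA per cell cannot be told apart. The labels do not state that the libraries came from separate litters or preparation days. The p-values measure only the spread between these 3 and 3 libraries.

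Complex I takes electrons from NADH and complex II takes them from succinate. Both pass them through ubiquinone to complex III, from there through cytochrome c to complex IV, and so to oxygen. Complexes I, III and IV pump protons across the inner mitochondrial membrane, and complex V, the ATP synthase, uses the gradient to make ATP. In the small intestine the absorptive enterocytes spend much of this ATP on nutrient uptake and on renewing the lining. The nuclear genes of the chain are known targets of the transcription factors NRF-1 and NRF-2, the second being an ETS-family factor.

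Levels are given as FPKM, the authors' number of fragments scaled to the length of the transcript and to the size of the library. This lets levels of different genes be compared roughly per length. The length behind these levels was estimated as that of the transcript less 210.5 bases. Levels of very short transcripts, such as Atp5k (292 bases) and Cox7a1 (366 bases), depend strongly on this subtraction. Their rank among genes is therefore less certain. Differences were tested with limma on log2(FPKM + 0.1), mutant minus control, over the 14642 genes whose mean reached 0.2 FPKM. Differences on this scale understate the change of genes with low levels. Depth estimated from coverage was 19.6 to 21.4 M reads (M for mega) in the controls and 19.1 to 22.9 M in the mutants. All 11 enterocyte markers were present, with summed levels of 22908 to 36256 FPKM in controls against 28087 to 37669 FPKM in mutants. Stomach and Brunner gland genes were highest in control 1 and mutant 1, at 4556 and 4609 FPKM in sum, against 122 to 1338 FPKM in the other libraries. The same pair alone lacked Xist, at 0.037 and 0.067 FPKM against 17.1 to 21.9 FPKM elsewhere. Each group held 1 such library, and the part of these differences in the results was not tested. Nkx2-2 itself stood at 1.07, 0.647 and 0.716 FPKM in controls 1 to 3, against 0.564, 0.772 and 0.909 FPKM in the mutants. A level over the whole gene does not check for the SD allele.

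Several members have near-identical copies in the genome, and a read from a shared stretch matches both gene and copy. Each transcript was cut into overlapping windows of 50 bases, and each window was looked for, unchanged and on both strands, at other places of the mouse genome build mm9 (NCBIM37). For 47 of the 92 members no window was found elsewhere, and for 15 more than 35% were. The extreme case was Atp5g2 (chr15:102493299-102501478), 1 of 3 genes for the membrane ring subunit c of complex V, with 598 of 598 windows found elsewhere. Its 441 coding bases occurred without any difference on chromosome 17 (chr17:5816200-5816640, minus strand) and on chromosome 7 (chr7:24731811-24732251, minus strand). All 598 windows were also found on a contig that the build lists apart from the chromosomes. Ndufs5 (chr4:123389953-123395429), an accessory subunit of complex I, had 80.0% of its windows elsewhere. Its 321 coding bases recurred in BC002163, annotated as a pseudogene (chr16:42955744-42956064, plus strand), with 2 differences, T81C and A105G. Positions count from 1 at the A of the coding start, with the base of Ndufs5 first and that of the copy second. The first 90 coding bases of Atp5g2, which are the same in its copies on chromosomes 17 and 7, and coding bases 75 to 164 of Ndufs5 beside its copy show how closely gene and copy match, with the differing bases in capitals.
Atp5g2: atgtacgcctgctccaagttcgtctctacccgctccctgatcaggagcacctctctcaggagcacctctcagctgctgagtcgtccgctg
Ndufs5: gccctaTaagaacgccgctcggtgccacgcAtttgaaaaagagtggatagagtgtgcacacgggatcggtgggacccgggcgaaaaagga
BC002163: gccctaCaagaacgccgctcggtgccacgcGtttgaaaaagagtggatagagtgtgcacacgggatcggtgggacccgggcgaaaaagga

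For several of these genes the authors' count table held far fewer reads than their level tables. The authors' deposited table of normalized counts was compared with read numbers estimated from the deposited coverage, wherever the mean reached 10 estimated reads. Over 14068 genes the median ratio of count to estimated reads was 1.01, and over 87 members it was 1.00. Counts were under 0.9 of the reads for 12 of these members (13.8%), beside 10.3% of all genes, and under 0.5 for 6 (6.90%), beside 3.8% of all genes. The lowest ratios were 0.028 for Atp5l, 0.032 for Atp5g2 and 0.044 for Cycs. The highest was 1.87 for Ndufb2. After the lowest came Cox7c at 0.16, Ndufb4 at 0.211 and Atp5g1 at 0.454. Of the 12 members with low ratios, 11 had more than 35% of their windows elsewhere (median 53.6%), against 3 of the other 75 (median 0%). The 3 were Atp5h, Uqcrb and Uqcr11, with 67.9%, 61.5% and 39.1% of windows elsewhere and ratios of 1.13, 1.00 and 0.99. Ndufs1 was the exception among the 12, with no window elsewhere. The part of the copies in the ratios was not tested. Ndufs5 was nearly absent from the level tables: it stood at 6.54 FPKM in control 2 and at 2.54e-05 FPKM or less in each of the other 5 libraries, and its count was 0. BC002163 carried 359, 318 and 274 FPKM in the controls against 354, 298 and 291 FPKM in the mutants. The level of Ndufs5 can therefore not be read from these tables, and its fitted log2 change of -2.02 (SE 1.54) rests on control 2 alone.

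**Figure D1:**
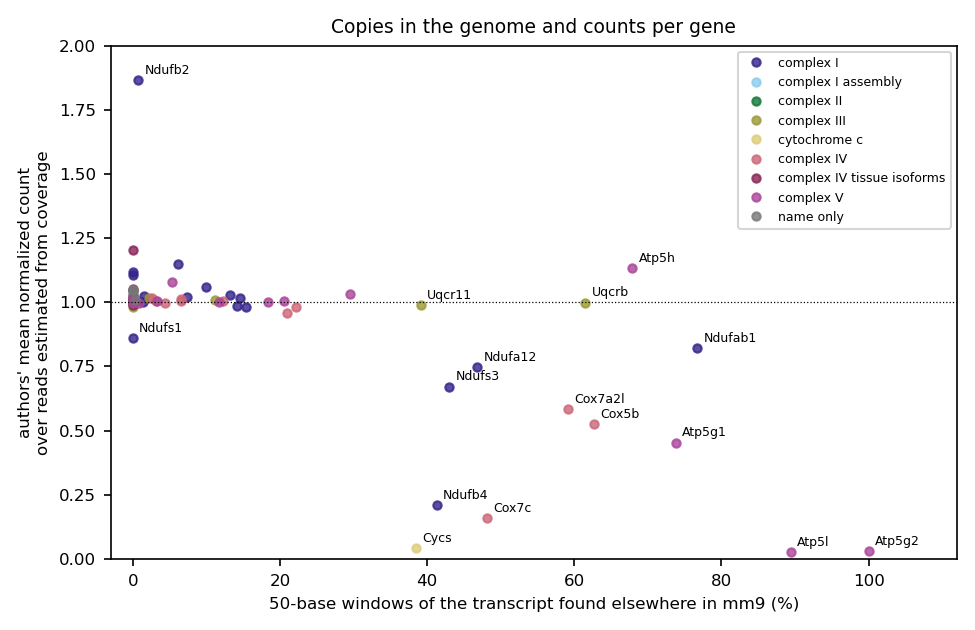
Each point is 1 of the 87 members with at least 10 estimated reads on average; the x axis gives the percentage of 50-base windows found elsewhere in mm9 and the y axis the authors' mean normalized count over the reads estimated from coverage. Atp5g2 and Atp5l lie at the lower right with ratios of 0.032 and 0.028, while most members without copies lie near 1.

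Promoters were compared for the 75 members found in RefSeq's promoter table (GRCm38.p6), over the 250 bases before the start. The core of the NRF-1 motif, GCATGCGC, sought on both strands, occurred in 10 of 75 members (13.3%) and in 2.56% of 27025 genes with a window. A palindrome can hold it on both strands at once, as in Atp5g2 and Cox6a1, where the overlapping matches form 1 run of capitals. The ETS motif CCGGAAG occurred on either strand in 13 members (17.3%), beside 7.83%, and the cyclic AMP response element TGACGTCA in 5 (6.67%), beside 1.77%. The motif of the factor YY1, AAGATGGCG, occurred in 2 members (2.67%), beside 0.71%. The SP1 box GGGCGG, in 40% of members and 35.4% of all genes, and TATAAA, in 8.0% and 14.3%, showed no such excess. The 27025 genes were not limited to those expressed in these libraries. Median GC content was 56.4% in members and 52.0% over all genes, and its part in these shares was not tested. A match is a run of letters and not a binding site. Shown 5′ to 3′, with NRF-1 core, ETS and cyclic AMP element matches in capitals, are Atp5g2 (chr15:102671048-102671297, minus strand) and its paralog Atp5g3 (chr2:73911327-73911576, minus strand), which differ in their matches, and the windows of Cox6a1 (chr5:115348959-115349208, minus strand) and Cycs (chr6:50566570-50566819, minus strand), which hold 2 kinds of match each.
Atp5g2: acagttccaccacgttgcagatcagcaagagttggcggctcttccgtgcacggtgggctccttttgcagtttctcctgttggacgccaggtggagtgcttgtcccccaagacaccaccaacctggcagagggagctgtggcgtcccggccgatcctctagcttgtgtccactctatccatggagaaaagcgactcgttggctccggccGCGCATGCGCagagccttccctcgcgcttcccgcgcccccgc
Atp5g3: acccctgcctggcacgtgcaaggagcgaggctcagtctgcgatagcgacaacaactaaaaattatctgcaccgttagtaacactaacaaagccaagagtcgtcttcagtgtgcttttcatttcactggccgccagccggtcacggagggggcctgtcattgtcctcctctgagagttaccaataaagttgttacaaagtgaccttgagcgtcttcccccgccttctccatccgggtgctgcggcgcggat
Cox6a1: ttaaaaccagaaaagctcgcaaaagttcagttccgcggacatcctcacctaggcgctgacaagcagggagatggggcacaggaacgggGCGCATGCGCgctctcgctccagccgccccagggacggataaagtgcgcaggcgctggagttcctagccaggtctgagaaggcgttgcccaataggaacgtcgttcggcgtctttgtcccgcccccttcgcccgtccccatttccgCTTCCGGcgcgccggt
Cycs: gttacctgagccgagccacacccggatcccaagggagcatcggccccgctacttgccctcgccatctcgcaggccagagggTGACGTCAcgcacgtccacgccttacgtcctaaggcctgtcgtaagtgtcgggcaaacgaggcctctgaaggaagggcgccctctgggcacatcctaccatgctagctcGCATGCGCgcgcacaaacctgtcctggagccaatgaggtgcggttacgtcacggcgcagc

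The chain took between 5.39% and 5.87% of all FPKM in each library, and its summed level overlapped between the groups. The 92 members together held 41742, 43153 and 41207 FPKM in controls 1 to 3, against 44032, 42376 and 42949 FPKM in the 3 mutants. These were 5.65%, 5.87% and 5.39% of all FPKM in the controls against 5.67%, 5.55% and 5.74% in the mutants. By complex, the ratio of the mutant to the control mean of the summed FPKM was 1.02 for complexes I, II, III and IV and 1.04 for complex V. The median level of a gene grew from complex I (209 FPKM) through complex II (435 FPKM), III (595 FPKM) and V (694 FPKM) to the common genes of complex IV (1155 FPKM).

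**Figure D2:**
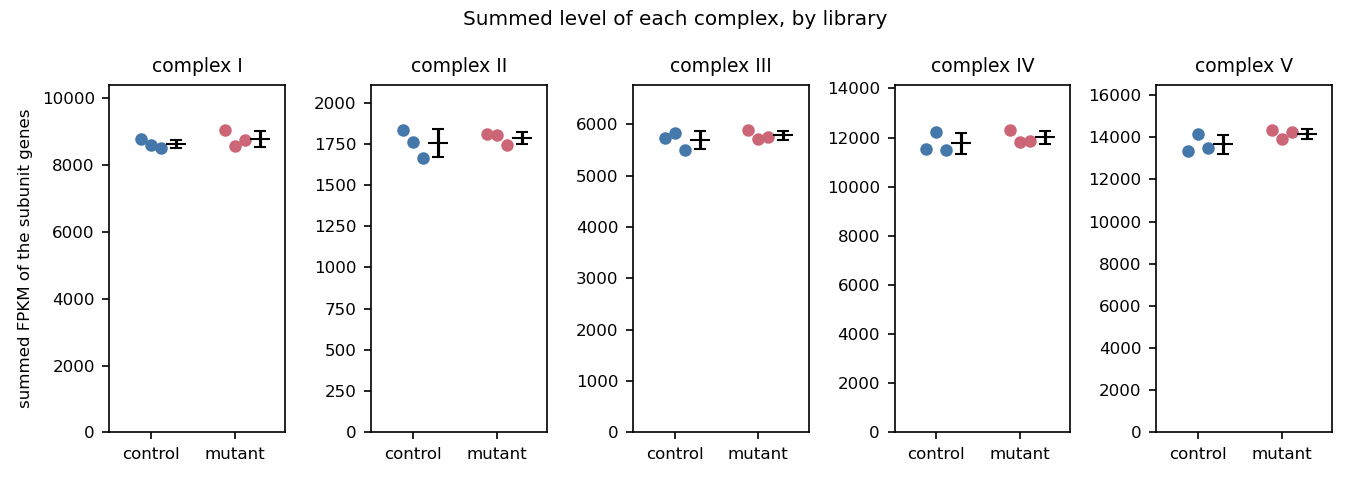
Points are the summed FPKM (y axis, from 0) of the subunit genes of each complex in the 3 control and 3 mutant libraries; black bars give the mean ± SD. The control and mutant points overlap in all 5 panels, and the ratio of the mutant to the control mean runs from 1.02 to 1.04.

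No member was called in the comparison of mutants with controls. At an adjusted p under 0.05 limma called 0 of 90 tested members, beside 0 of 14642 genes (0.0%), and the smallest adjusted p of any gene was 0.191. At an unadjusted p under 0.05 it counted 1 of 90 members, Atp5g2, beside 2.84% of all genes. The authors' deposited DESeq table gave an adjusted p under 0.05 for 0 of 89 members, beside 0.0269% of 18621 genes, and an unadjusted p under 0.05 for 1 of 89, again Atp5g2, beside 1.12%. For 8 of 90 members (8.89%) every mutant library lay above every control library, beside 4.14% of all genes. None had every mutant library below every control, beside 3.43%. Cox7b2 and Cox8c, at 0 in all libraries, were below the filter and not tested.

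The spread between libraries was narrow enough to bound most differences in FPKM. For 85 of 90 members (94.4%) the 95% interval of the log2 change lay within 1.5-fold in either direction, beside 65.1% of all genes tested. The other 5 were Ndufs5, Cox6a2, Cox8b, Ndufa4l2 and Atp5s, whose means were all under 10 FPKM. The intervals measure the spread of FPKM and not the sharing of reads with copies. Atp5g2 was among the 85, while the authors' counts gave it a fold change of 2.32. Among the 73 members with a mean of at least 100 FPKM, the median coefficient of variation over the 6 libraries was 5.18% (2.10% to 14.9%), beside 8.62% for 1026 genes at that level. Their log2 changes ran from -0.11 to 0.30.

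The direction of the whole set depended on the scaling. The log2 change was above 0 for 58 of 90 members (64.4%), beside 51.2% of all genes, with a median of 0.03 for the members and 0.00 for all genes. After median-of-ratios scaling 57 of 90 members were above 0, and their median was 0.03, beside -1.2e-05 for all genes. After quantile normalization of the same values 34 of 90 members were above 0, and the median was -0.03, beside -0.01 for all genes. Without control 1 the median of the members was 0.03 and that of all genes 0.04. No direction is therefore given for the chain as a whole or for a complex, and the values of single genes below are those of the deposited FPKM.

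**Figure D3:**
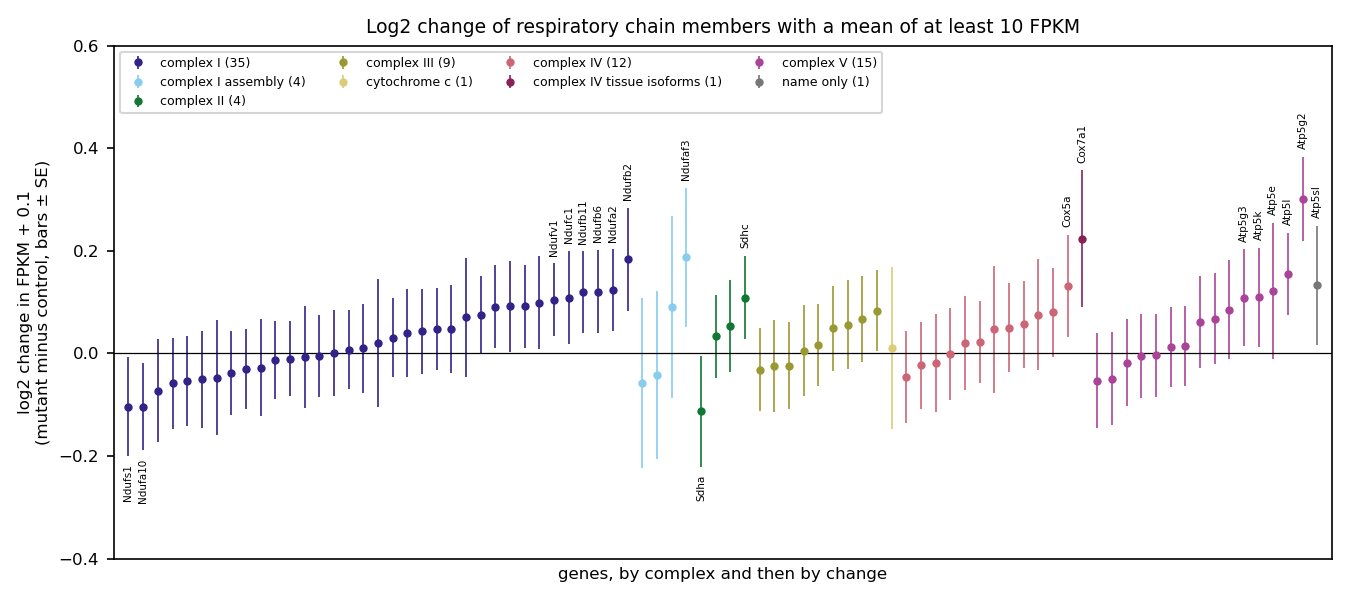
The y axis gives the log2 change of FPKM + 0.1 (mutant minus control) with bars of ± SE for the 82 members with a mean of at least 10 FPKM, ordered on the x axis by complex and then by change, with names where the change is over 0.1 in size. Nearly all bars reach or approach 0, and Atp5g2, at 0.30, lies farthest from it.

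Complex I was measured through 36 genes, of which 21 had a log2 change above 0 and 15 below, with a median of 0.01 that turned to -0.04 after quantile normalization. The 7 core subunits, which carry the flavin, the iron-sulfur clusters and part of the ubiquinone site, had a median log2 change of 0.05 and the 29 accessory subunits one of 0.01. The most abundant was Ndufb9, an accessory subunit of the membrane arm, at 694, 733 and 678 FPKM in the controls against 735, 710 and 729 FPKM in the mutants. Ndufa3, another accessory subunit, stood at 729, 662 and 716 FPKM against 715, 669 and 640 FPKM. The groups overlapped for both, with log2 changes of 0.05 (SE 0.08) and -0.06 (SE 0.09).

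Of the 36 complex I genes, 4 had groups that did not overlap in the deposited FPKM, all higher in mutants. Over all genes tested 4.14% were higher and 3.43% lower in this way. After quantile normalization the log2 changes were smaller, at 0.063 for Ndufv1, 0.14 for Ndufb2, 0.052 for Ndufa2 and 0.069 for Ndufb11. Ndufv1, the core subunit that binds NADH and the flavin, stood at 175, 170 and 175 FPKM in controls against 183, 189 and 186 FPKM in mutants. The difference was small, 0.10 on the log2 scale (SE 0.07, limma unadjusted p = 0.184). Ndufb2, an accessory subunit of the membrane arm, stood at 130, 154 and 158 FPKM against 160, 164 and 177 FPKM (log2 change 0.18, SE 0.10, limma unadjusted p = 0.109). Its controls 2 and 3 lay close to mutant 1, and control 1 lay apart below them; without control 1 the log2 change was 0.098.

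Ndufa2 (accessory) stood at 312, 336 and 331 FPKM against 341, 367 and 358 FPKM, a log2 change of 0.12 (SE 0.08, limma unadjusted p = 0.163). Ndufb11, which lies on the X chromosome, stood at 190, 183 and 188 FPKM against 217, 196 and 196 FPKM (log2 change 0.12, SE 0.08). Mutant 1 was the highest library for Ndufb11, and the others lay within a narrow band. Without mutant 1 its log2 change was 0.069. For Ndufb6 (accessory) the values were 281, 295 and 286 FPKM against 324, 321 and 292 FPKM, where mutant 3 fell among the controls (log2 change 0.12, SE 0.08). Adjusted p-values of these 5 genes were 1.00 in limma.

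The subunits with negative estimates included Ndufs1, the largest iron-sulfur subunit, at 110, 110 and 92.4 FPKM in controls against 92.3, 101.1 and 95.8 FPKM in mutants. Its log2 change was -0.10 (SE 0.10), and control 3 lay among the mutants.

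The 4 assembly factors were lower than nearly all subunits, with means of 12 to 22.2 FPKM. Ndufaf3 had the smallest p of them, at 22.3, 16.7 and 16.3 FPKM in controls against 21.2, 19.6 and 21.6 FPKM in mutants. Control 1 lay above all 3 mutants, and the log2 change was 0.19 (SE 0.14). Without control 1 it was 0.33 (SE 0.09, limma unadjusted p = 0.0118, adjusted p = 0.985). Without control 2 it was 0.12 (limma unadjusted p = 0.455) and without control 3 it was 0.11 (limma unadjusted p = 0.488). Ndufaf2 stood at 24.9, 17.0 and 22.8 FPKM against 26.7, 19.1 and 22.9 FPKM, with libraries 1 high and libraries 2 low in both groups.

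Complex II, which also belongs to the citric acid cycle, held 1753 ± 84.9 FPKM in controls against 1785 ± 35.2 FPKM in mutants in sum (SD, n = 3 each). Sdhd, a membrane anchor, was its most abundant gene, at 604, 575 and 526 FPKM against 606, 599 and 563 FPKM. Sdhb, the iron-sulfur subunit, stood at 523, 522 and 484 FPKM against 534, 508 and 521 FPKM. In both the groups overlapped. Sdhc, the other anchor, stood at 335, 329 and 363 FPKM against 375, 375 and 357 FPKM, a log2 change of 0.11 (SE 0.08, limma unadjusted p = 0.22). Sdha, the flavoprotein that oxidizes succinate, lay on the other side of 0, at 373, 333 and 292 FPKM against 295, 320 and 304 FPKM (log2 change -0.11, SE 0.11). Here the controls were spread more widely than the mutants and enclosed them.

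Complex III was led by Uqcrh, the hinge protein that helps cytochrome c dock, at 1303, 1376 and 1262 FPKM in controls against 1388, 1284 and 1285 FPKM in mutants. The groups overlapped, with a log2 change of 0.01 (SE 0.09). Uqcrq, a small structural subunit, stood at 772, 745 and 759 FPKM against 793, 796 and 821 FPKM. It was the 1 gene of complex III whose groups did not overlap, by a log2 change of 0.08 (SE 0.08, limma unadjusted p = 0.321). Uqcr11, another small subunit, had the next smallest p. It stood at 464, 480 and 451 FPKM against 466, 479 and 518 FPKM, with mutant 3 above the rest and the other mutants among the controls (log2 change 0.07, SE 0.08, limma unadjusted p = 0.447). The catalytic Cyc1, cytochrome c1, stood at 575, 624 and 577 FPKM against 591, 601 and 604 FPKM. For the 9 genes, log2 changes ran from -0.03 to 0.08.

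Cytochrome c (Cycs), the carrier between complexes III and IV, was the most variable of the members above 100 FPKM. It stood at 135, 202 and 152 FPKM in controls against 147, 178 and 162 FPKM in mutants. Control 2 was highest and control 1 lowest, with the mutants between them. As given above, few of its reads were counted in the authors' table, and its log2 change of 0.01 had a 95% interval from -0.36 to 0.38.

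Complex IV was the complex with the highest median level. Cox6a1, a regulatory subunit, stood at 1639, 1720 and 1660 FPKM in controls against 1685, 1717 and 1796 FPKM in mutants. Cox6b1, which joins both monomers of the dimer, stood at 1691, 1706 and 1624 FPKM against 1670, 1622 and 1650 FPKM. It was the least variable of the members above 100 FPKM. Cox5a, a matrix-side subunit, had the smallest p of the 12 common genes, at 1085, 1124 and 1148 FPKM against 1336, 1241 and 1110 FPKM. Mutants 1 and 2 lay above the controls and mutant 3 among them (log2 change 0.13, SE 0.10, limma unadjusted p = 0.228). Cox8a stood at 1319, 1294 and 1235 FPKM against 1398, 1303 and 1367 FPKM (log2 change 0.08, SE 0.09). Cox4i1, which binds ATP as a brake on the enzyme, stood at 1410, 1566 and 1464 FPKM against 1525, 1461 and 1449 FPKM, with a 95% interval of the log2 change from -0.21 to 0.21. Ndufa4 stood at 1304, 1432 and 1345 FPKM against 1443, 1329 and 1258 FPKM, and the groups overlapped.

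Of the tissue-restricted forms of complex IV, Cox7a1 alone was abundant. Cox7a1 is the form of heart and skeletal muscle, and Cox7a2 the form of most other tissues. Cox7a1 stood at 242, 250 and 281 FPKM in controls against 342, 250 and 318 FPKM in mutants. Mutants 1 and 3 lay above all controls and mutant 2 among them, a log2 change of 0.22 (SE 0.13, limma unadjusted p = 0.138, adjusted p = 1.00). Without mutant 2 it was 0.36 (SE 0.11, limma unadjusted p = 0.0158, adjusted p = 0.999), and without mutant 1 it was 0.13 (limma unadjusted p = 0.375). Cox7a2 stood at 524, 570 and 551 FPKM against 546, 559 and 566 FPKM. Cox7a1 thus made up 31.6%, 30.5% and 33.8% of the FPKM of the pair in controls and 38.5%, 30.9% and 36% in mutants. The transcripts of Cox7a1 and Cox7a2 have 366 and 754 bases, and their estimated reads averaged 917 and 6321 a library. No 50-base window of Cox7a1 was found elsewhere in the genome, and its count was 1.01 times its estimated reads.

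Markers of striated muscle were low. The list had 4 of 11 genes above 0.2 FPKM, led by Ckm at a mean of 8.03 FPKM, and summed to 10.8 to 12.9 FPKM in controls against 11.4 to 15.1 FPKM in mutants. Its defining myosins Myh1, Myh2, Myh4 and Myh7 were at 0.018 FPKM or less on average. All 9 smooth muscle genes were present, with sums of 834, 641 and 876 FPKM in controls against 698, 910 and 872 FPKM in mutants. Mutant 1, the highest library for Cox7a1, was the lowest mutant for smooth muscle, and mutant 2, the lowest mutant for Cox7a1, was the highest. Among the controls, control 3 was the highest for both. Control 1 was the lowest control for Cox7a1 and control 2 the lowest for smooth muscle. The part of either cell type in the level of Cox7a1 was not tested.

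The other tissue forms contributed under 0.5% of their pair in each library. Cox4i2, a form of lung that responds to oxygen, stood at 2.53, 2.07 and 1.91 FPKM in controls against 1.62, 2.47 and 2.70 FPKM in mutants, 0.11% to 0.19% of the Cox4i pair. Cox6b2, a testis form, stood at 4.66, 4.04 and 7.01 FPKM against 4.22, 5.16 and 5.86 FPKM. Ndufa4l2, known to be induced by low oxygen, stood at 2.42, 1.29 and 2.63 FPKM against 3.27, 2.36 and 1.8 FPKM. For these the groups overlapped, and 95% intervals reached from -0.54 to 0.98 at the widest.

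The muscle forms Cox6a2 and Cox8b were at the limit of detection, with means of 5 and 2.82 estimated reads a library. Cox6a2 stood at 0.416, 0 and 0.838 FPKM in controls against 0.583, 0.305 and 0.973 FPKM in mutants. Cox8b stood at 0.610, 0.333 and 2.45 FPKM against 0.342, 0 and 1.42 FPKM. The groups overlapped for both, and the 95% intervals of the log2 change ran from -1.03 to 2.77 around 0.87 for Cox6a2 and from -3.62 to 1.26 around -1.18 for Cox8b. With the replicate number as a block, Cox8b had a limma unadjusted p of 0.0207 and an adjusted p of 0.845. Cox7b2 and Cox8c, testis forms, were listed at 0 in all libraries, as were 3 of 6 germ cell markers, Prm2, Tnp1 and Pgk2. The other 3, Prm1, Tnp2 and Ldhc, averaged 0.041, 0.025 and 0.064 FPKM.

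**Figure D4:**
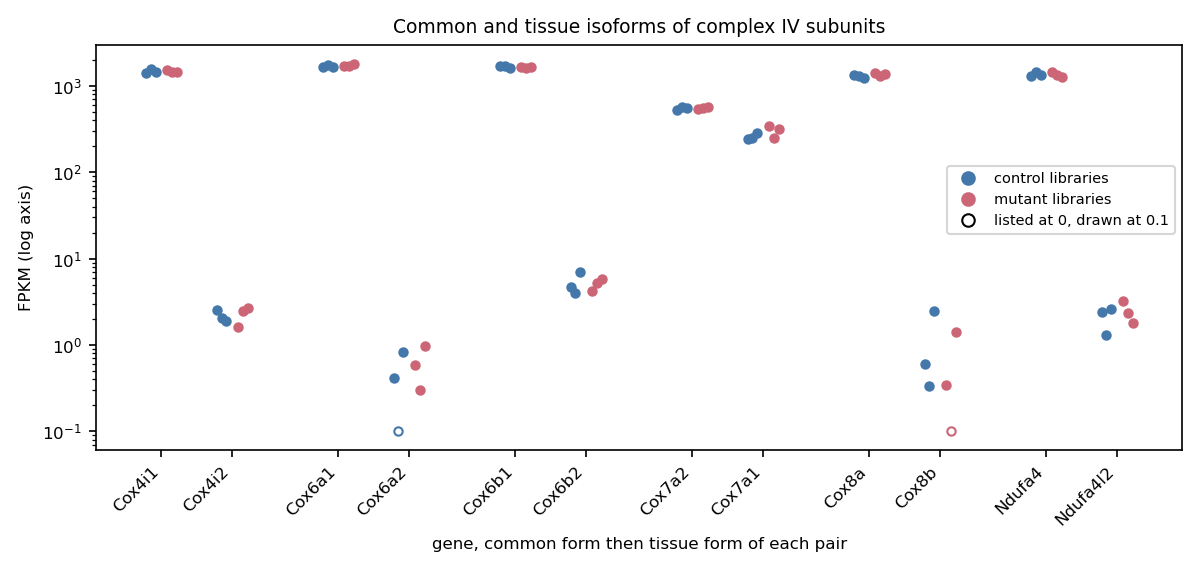
Points give FPKM on a log axis for each control and mutant library, with the common and then the tissue form of each pair on the x axis; open points are values listed at 0 and drawn at 0.1. Cox7a1 makes up 30.5% to 38.5% of its pair, while the other tissue forms lie at 7.01 FPKM or below, beside 1235 FPKM or more for their common forms.

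Complex V contained the most abundant members and the single gene with an unadjusted p under 0.05. Its 15 genes summed to 13342, 14155 and 13480 FPKM in controls against 14349, 13897 and 14243 FPKM in mutants. The groups overlapped, with mutant 2 below control 2. The catalytic subunit Atp5b (beta) stood at 1791, 1978 and 1790 FPKM against 1729, 1827 and 1796 FPKM, and its partner Atp5a1 (alpha) at 1028, 1118 and 965 FPKM against 992, 1005 and 1004 FPKM. Both had estimates of -0.05 (SE 0.09). Atp5k, subunit e of the membrane part, stood at 2260, 2095 and 2119 FPKM against 2306, 2207 and 2474 FPKM, a log2 change of 0.11 (SE 0.10). Mutant 2 lay among the controls.

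Of the 3 genes of the ring subunit, whose mature proteins are the same, Atp5g3 had by far the highest FPKM. The other 2 were similar to each other in FPKM. In FPKM, Atp5g1 made up 8.51% to 9.41% of its sum with Atp5g3 over the 6 libraries, and Atp5g2 7.62% to 9.74%. In the authors' normalized counts they differed, with means of 1299 for Atp5g1 and 68.4 for Atp5g2. Of their windows 73.8% and 100% occurred elsewhere, so their relative level is uncertain. Atp5g3, the most abundant of all members, stood at 2132, 2410 and 2248 FPKM in controls against 2429, 2444 and 2439 FPKM in mutants. Its mutants lay close together, just above control 2, with a log2 change of 0.11 (SE 0.09, limma unadjusted p = 0.286). Atp5g1 stood at 201, 237 and 229 FPKM against 226, 254 and 227 FPKM, and its groups overlapped.

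Atp5g2 stood at 201, 199 and 222 FPKM in controls against 262, 246 and 257 FPKM in mutants. All 3 mutants lay above all 3 controls. The log2 change was 0.30 (SE 0.08, 95% interval 0.11 to 0.50, limma unadjusted p = 0.0079, adjusted p = 1.00), the largest among members above 10 FPKM. It ran from 0.26 to 0.35 over all alternatives. In the authors' deposited table, which held 0.032 of its estimated reads, the group means were 41.2 normalized counts in controls and 95.5 in mutants, a fold change of 2.32 (log2 1.21, p = 2.22e-05, adjusted p = 0.0591). Since all windows of Atp5g2 occur elsewhere, its reads cannot be told apart from those of its copies over their whole length, and its level is uncertain in both.

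Atp5l, subunit g of the membrane part, stood at 434, 458 and 449 FPKM in controls against 523, 480 and 490 FPKM in mutants. Its groups did not overlap, and the log2 change was 0.15 (SE 0.08, limma unadjusted p = 0.0946). In the authors' deposited table its means were 82.2 and 85.5 normalized counts, a fold change of 1.04, from 0.028 of its estimated reads. The 2 members with the smallest p were also 2 of the 3 with the lowest count ratios among the 87 compared. The remaining 1, Cycs, with a ratio of 0.044, had a limma unadjusted p of 0.949. A link between p and count ratio was not tested.

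**Figure D5:**
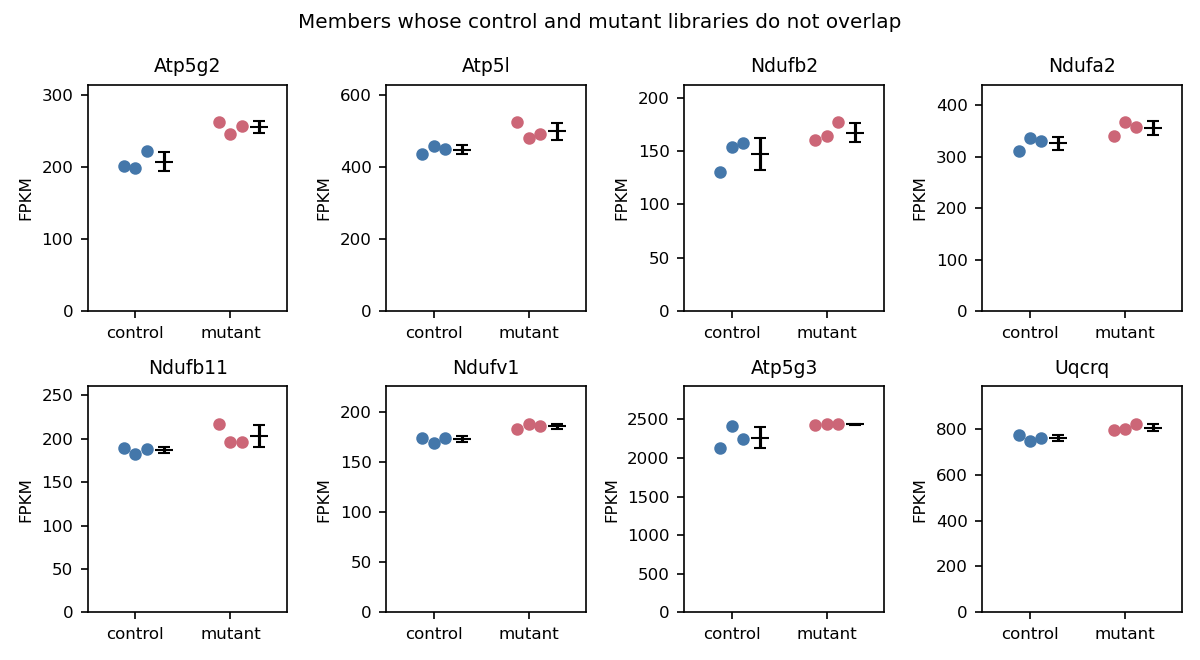
Each panel shows FPKM (y axis, from 0) of 1 of the 8 members whose control and mutant libraries do not overlap, with black bars for the mean ± SD. In every panel the lowest mutant point lies above the highest control point, by the widest margin for Atp5g2 (246 against 222 FPKM).

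Genes that build, supply and regulate the chain were taken from fixed lists of genes that are no members. None of their genes had an adjusted p under 0.05 in limma. At an unadjusted p under 0.05 limma counted 2.84% of all genes. In a short list a count of 1 cannot be told from that share. Of 12 complex IV assembly factors 7 had log2 changes above 0 and 5 below, with 1 unadjusted p under 0.05. That gene was Cox18, which inserts a subunit into the inner membrane, at 6.63, 8.18 and 4.91 FPKM against 12.3, 8.91 and 8.21 FPKM (log2 change 0.58, SE 0.22). Of 14 other assembly factors 4 were above 0 and 10 below. Nubpl, which delivers iron-sulfur clusters to complex I, was the 1 gene of this list with an unadjusted p under 0.05. It stood at 5.30, 5.08 and 4.35 FPKM against 5.65, 6.77 and 6.53 FPKM (log2 change 0.36, SE 0.13, limma unadjusted p = 0.0253). The largest log2 change of the list, 0.72, belonged to another gene, whose unadjusted p was not under 0.05.

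Of 18 genes of mitochondrial biogenesis 11 were above 0 and 7 below, with 1 unadjusted p under 0.05, beside 2.84% of all genes. The transcription termination factor Mterf stood at 2.42, 2.17 and 2.34 FPKM against 3.38, 2.85 and 2.76 FPKM (log2 change 0.36, SE 0.13). Of 16 citric acid cycle genes 5 were above 0 and 11 below, and of 18 carriers, channels and antioxidants 10 were above and 8 below, with no unadjusted p under 0.05 in either list. Of 75 mitochondrial ribosome genes 50 were above 0 and 25 below, with 5 unadjusted p-values under 0.05 (6.67%), beside the 2.84% of all genes. These were Mrpl27, Mrpl33, Mrps10, Mrps24 and Mrps26, all higher in mutants in the deposited FPKM. Over all genes tested 51.2% of log2 changes were above 0. No direction is given for these lists either, since their changes were not compared under other scalings. Mrps24, a protein of the small subunit, stood at 36.9, 33.2 and 40.5 FPKM against 47.2, 50.2 and 44.4 FPKM (log2 change 0.36, SE 0.10, limma unadjusted p = 0.00882).

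Where members have several transcripts, the same one led in every library for most. This was so for 6 of 7 such members: Ndufs1, Atp5g1, Ndufs6, Ndufv3, Cox7a2l and Atp5c1. In Ndufv3, a small complex I subunit with a short and a long form, the short transcript NM_001083891 held 94.8%, 95.3% and 95.8% of the level in controls and 95.5%, 95.3% and 95.6% in mutants. In Ndufs1 the transcript NM_145518 held 61.1%, 70.4% and 66.8% against 66.9%, 64.0% and 59.7%. Cox6b2 was the exception, with NM_183405 at 44.2% to 100% of a level that rested on 34.6 estimated reads a library.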

How the data were processed

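RNA of 6 duodenum libraries, 3 control and 3 mutant, was measured by RNA-seq. For the steps of the authors, the submitters' processing notes list CASAVA 1.8.2, TopHat, Cufflinks, DESeq and mouse build mm9, without settings. Per the file headers, the authors deposited FPKM per gene and per isoform, the isoform's length in bases and its read coverage, an unscaled signal. A deposited table of the authors' comparison holds mean normalized counts per group, a fold change (a ratio), the log2 fold change and DESeq p-values. How multiply mapped reads were shared is not given in the sources used here.

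Of 23699 rows, 464 with a repeated symbol were dropped, keeping the highest mean, and 201 symbols without a successful estimate were left out, so that 23034 were used. The main test was limma 3.58.1 (R 4.3.3) on log2(FPKM + 0.1), its prior variance following the mean, over genes averaging 0.2 FPKM or more, two-sided, with Benjamini-Hochberg adjustment over 14642 genes. Reads were estimated from coverage, the length less 210.5 bases and the read length of 101 bases, and came out whole within 0.05 for 90.1% to 91.4% of values under 50 reads. They are estimates and served as depth and in limma-voom, an alternative, with library sizes scaled by median-of-ratios factors. Locus starts were converted to count from 1. In simulated data of 14597 genes with 3 libraries a group, the test recovered 78 of 100 genes changed 2-fold. It recovered 100 of 100 changed 4-fold and called 10 unchanged genes. The changed genes were drawn from those averaging at least 50 reads. Each gene's spread was set to the mean of its own and that of the trend. The shares recovered therefore do not apply to members with fewer reads, such as Cox6a2 and Cox8b.

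The members, lists and tests were chosen with earlier results of these data known. Members named in full were the 2 most abundant, the 2 with the smallest p and the 1 with the largest change of each complex, all tissue isoforms, and the first 10 by p; other assembly, biogenesis and metabolic genes were named from lists by p. Genes named beside these were chosen after their values were seen. Alternatives were another pseudocount, other filters and scalings, other variance models, a replicate block, summed symbols and leaving out each library.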

Additional observations from a re-analysis of the deposited data

How the results depend on the processing

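No member was called at an adjusted p under 0.05 under any of the 16 alternatives, where 0 is the lowest and 0 the highest count when each library was left out. Quantile normalization turned the median log2 change of complex I to -0.040, of complex II to -0.025, of complex III to -0.023, of complex IV to -0.032 and of complex V to -0.017; the cause was not tested. With no filter on low values 3 members had an unadjusted p under 0.05 (Atp5g2, Atp5l and Ndufv1) and 12 of all genes were called. Leaving out each library in turn, the count of members at an unadjusted p under 0.05 ran from 1 to 2, with 2 without control 1 (Ndufaf3 added) and 2 without mutant 2 (Cox7a1 added). The count over all genes ran from 0 to 3: 3 without control 3, 1 without control 1, control 2, mutant 1 or mutant 3, and 0 without mutant 2. The medians then ran from 0.0028 to 0.051 for complex I, 0.016 to 0.088 for complex V, 0.0015 to 0.067 for complex IV, -0.0021 to 0.072 for complex II, -0.0014 to 0.055 for complex III, -0.029 to 0.14 for the assembly factors and -0.063 to 0.25 for the tissue isoforms. Log2 changes of the 10 members with the smallest p kept their sign under every alternative, with 0.27 to 0.35 for Atp5g2 when libraries were left out. Quantile normalization lowered all 10, from 0.30 to 0.26 for Atp5g2, from 0.12 to 0.052 for Ndufa2 and from 0.11 to 0.038 for Sdhc. The 10 were picked by p from these same data.

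With the replicate number as a block, 3 members had an unadjusted p under 0.05 (Atp5g2, Cox8b and Ndufb2), and 1 of all genes was called. The numbers were not shown to pair the mice: deviations of same-numbered libraries correlated at 0.24, 0.031 and 0.25 over 12307 genes, and control 2 correlated better with mutant 3 (0.11) than with mutant 2.

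Depth limits the tissue isoforms Cox6a2 and Cox8b, with 5 and 2.82 estimated reads a library, and Atp5g2, Atp5l and Ndufs5 share 80.0% or more of their windows with other places of the genome, whose part in their values was not tested.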
